A study of Mus musculus with 2 samples.

Results

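The genes described here are 34 that mark macrophages and their functions, namely surface receptors, complement components, major histocompatibility complex (MHC) class II genes, and intracellular or secreted proteins of phagocytes. They were chosen by name, and every probe set whose annotation gives exactly 1 gene symbol from that list was taken, which gave 51 probe sets for all 34 genes out of 12394 genes on the array. RNA came from uterine stromal cells, the connective tissue cells under the uterine epithelium, isolated by enzymatic digestion of the horns of pregnant mice on day 5, counting the vaginal plug as day 1. RNA of 3 animals per genotype was pooled on 1 Affymetrix Mouse Genome 430A 2.0 array, so there were 2 arrays, no replicates and no test. Every ratio below is a comparison of these 2 pools of RNA alone.

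The control array held cells of floxed mice without the deletion, titled Hif1 flox control and given the genotype Hif2 alpha-intact. The other array held cells of a conditional knockout, titled Hif1 cKO and given the genotype Hif2 alpha-null. It was made by crossing Hif1 floxed mice with PRcre mice, in which Cre is driven by the progesterone receptor promoter, so deletion is expected in cells that express that receptor or descend from such cells. The breeding note names a further target, Rac1. The labels therefore disagree on the deleted gene, and the array is called knockout-labelled throughout. The animals' ages and strain are not given in the sources used here.

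Macrophages live in the connective tissue of the uterus and can remain in an enzymatic digest of its stroma. They sense antibody-coated particles with Fc receptors, which signal through small adaptor chains, and they are a main source of C1q, the protein that starts the classical complement cascade. Like dendritic cells and B cells they show peptides to CD4 T cells on MHC class II molecules, whose genes are switched on by the coactivator encoded by Ciita. The array measured the digest as a whole, so fewer cells of a type and less RNA per cell cannot be told apart.

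Each value is a MAS5 signal, an intensity on a linear scale that summarises the probes of a probe set. Signals under a floor of 19.7, the 40th percentile of both arrays, were set to the floor before the log2 ratio, knockout-labelled minus control, was taken. A gene with several probe sets is given by its brightest, meaning the highest log2 signal averaged over both arrays. At the brightest probe set 31 of the 34 genes were above the floor on both arrays, 2 (Aif1 and Ciita) were above it on the control array alone, and Cybb was under it on both. All 13 markers of uterine stroma fixed for comparison, among them the homeobox gene Hoxa10, the matrix proteoglycan Dcn and Vim, were above the floor on both arrays. Hand2 was only just above it, with signals of 21.2 and 22.1. Pan-leukocyte and macrophage markers were thus measured in a preparation labelled as stromal cells. The median signal was 41.8 in the control pool and 34.4 in the knockout-labelled pool.

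The 2 arrays also differed in the ends of their transcripts. The ratio of 3' to 5' signal of b-actin was 2.27 in the control pool and 16.0 in the knockout-labelled pool, and that of Gapdh was 1.49 and 7.25. It lies between the same 2 pools as the genotype, so they cannot be told apart, and its part in any result below was not tested. An error could be estimated only from how far probe sets of the same gene disagreed. Over 2662 genes with 2 measured probe sets, the SD of a log2 ratio at 1 probe set was 0.64, and in 30.5% of them the 2 brightest probe sets differed by at least 2-fold in their ratio. That error leaves out the spread between animals, pools and arrays. It also leaves out any offset that genes share between their 2 brightest probe sets. The difference between these 2 had an SD of 0.90 about its mean and a root mean square of 0.99.

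Of the 33 member genes compared, 12 were 2-fold or more below control in the knockout-labelled pool, 2 were 2-fold or more above it and 19 lay between. Among all 8594 genes compared, 13% were lower by 2-fold or more and 6.21% higher by as much, so 36.4% of the members were lower by that size and 6.06% higher. The median log2 ratio was -0.61 over the members and -0.10 over all genes compared. By any amount, 21 members were lower and 12 higher, where 55.3% of all genes were lower and 44.7% higher. Scaling changed the balance. When each array was centred on its median, 7 members were lower by 2-fold or more and 3 higher by as much, while 7.77% of all genes were lower and 13.4% higher. The median over all genes moved from -0.10 to 0.16 under that centring, and to 0.03 under quantile normalization. Of the 12 genes at least 2-fold lower, 5 stayed at least 2-fold lower under all 8 other settings tried that could give them a value (Fcer1g, C1qa, C1qc, Cyba and Fcgr1, the last with 7 such settings), and all 12 stayed below 0 in every such setting. Fcgr1 had no value with the floor at the 60th percentile, because it was then under the floor on both arrays. In that setting Aif1 and Cd68 were no longer 2-fold lower. Cd74, H2-Ab1 and Lyz2 kept the call in 7 of 8 settings, Itgb2 in 4 and H2-DMa in 3. Of the 12, only H2-Ab1 has several probe sets. Settings that change which probe sets are used therefore could not move the ratios of the others.

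**Figure D1:**
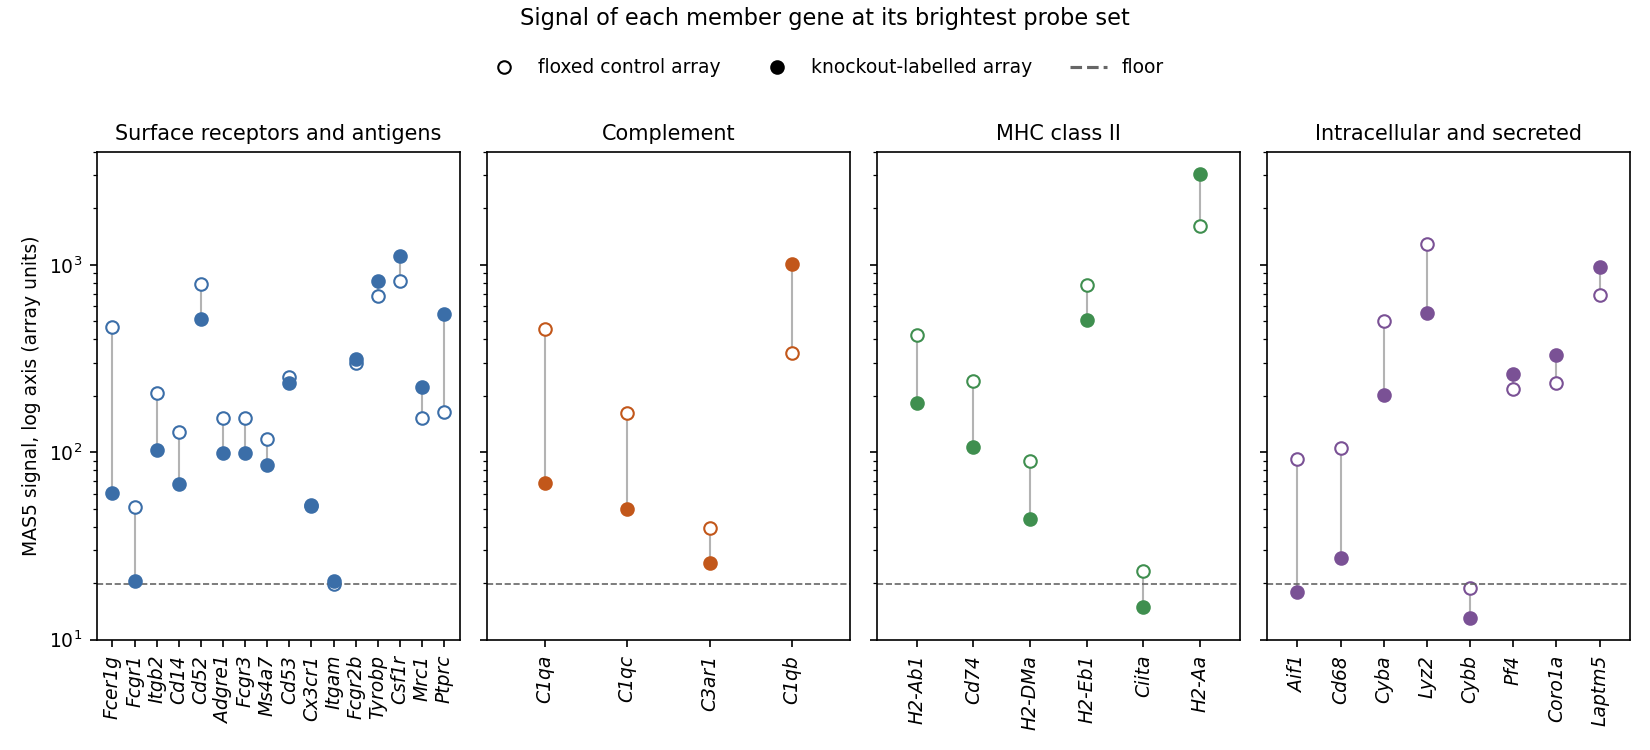
MAS5 signal (log axis) of each of the 34 member genes at its brightest probe set on the floxed control array (open circles) and the knockout-labelled array (filled circles), in 4 panels by role, with the floor of 19.7 dashed. The longest drops are those of Fcer1g, C1qa, Aif1 and Cd68, while Ptprc and C1qb lie higher on the knockout-labelled array.

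**Figure D2:**
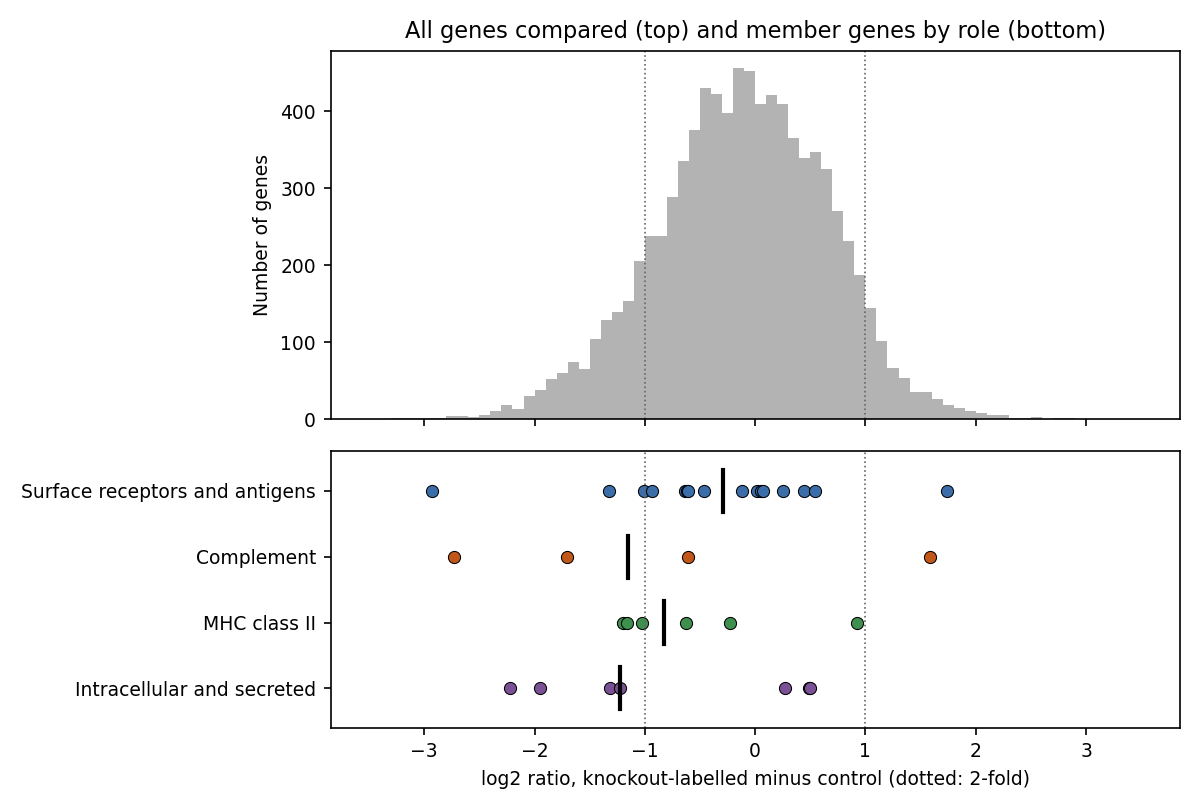
Histogram of the log2 ratio of all 8594 genes compared (top, number of genes per bin) and the 33 compared member genes as points by role (bottom), with black bars at each role's median and dotted lines at 2-fold. The medians lie at -0.29 for surface receptors and antigens, -1.16 for complement, -0.83 for class II and -1.23 for intracellular and secreted proteins.

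The surface receptors and antigens, 16 genes, had the median closest to that of all genes. Of these, 3 were lower by 2-fold or more (18.75%) and 1 higher by as much (6.25%), where 13% and 6.21% of all genes were. The group median was a log2 ratio of -0.29, and 9 were lower and 7 higher by any amount. The receptors for the Fc part of IgG and their signalling chains did not move together. Fcer1g, the common gamma chain that carries the signal of activating Fc receptors, had a signal of 464 in the control pool and 60.8 in the knockout-labelled pool, a 7.63-fold lower value (log2 ratio -2.93). Fcgr1, the high-affinity IgG receptor that needs this chain at the cell surface, had signals of 51.3 and 20.5 (-1.32), the second just above the floor. Fcgr3, a low-affinity activating receptor that uses the same chain, had signals of 152 and 99.4 (-0.61). The first 2 of these genes were past 2-fold and Fcgr3 was not.

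Tyrobp, the adaptor DAP12 that serves other myeloid receptors, had signals of 684 and 817 (log2 ratio 0.26), so these related adaptor chains lay on opposite sides of 0. Fcgr2b, the inhibitory IgG receptor, was level at its brightest probe set, with 300.5 and 316 (0.07). The log2 ratio was lower at its 3 further probe sets, at -0.28, -0.55 and -1.52, so 3 of 4 were lower and only 1 of them by 2-fold. In the mouse genome Fcgr3 and Fcgr2b lie on chromosome 1 with 1 protein-coding gene between them, and their sequences are alike enough that a probe set may read both.

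The antigens that mark leukocytes at large went different ways. Ptprc, the phosphatase CD45 found on all nucleated blood cells, had a signal of 164 in the control pool and 545 in the knockout-labelled pool. It was 3.33-fold higher (log2 ratio 1.74), and it stayed at least 2-fold higher under all 8 other settings. Ptprc has 1 probe set, so settings that change which probe sets are used could not move its ratio. Cd53, a leukocyte tetraspanin, had signals of 253 and 233 (-0.12), and Cd52, a short glycoprotein of lymphocytes and macrophages, had 793 and 511 (-0.63). Itgb2, the beta chain shared by the leukocyte integrins, had 206 and 102 (-1.01), at the edge of the 2-fold rule. Its partner Itgam, the alpha chain CD11b, was at 19.8 and 20.5, next to the floor on both arrays, so its ratio of 0.05 carries little information. Of these leukocyte antigens, Ptprc was the highest of the 33 compared genes and Itgb2 alone was at least 2-fold lower.

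The other macrophage surface markers, Fcgr1 apart, were inside 2-fold at their brightest probe sets. Adgre1, an adhesion receptor found mainly on mouse macrophages, had signals of 152 and 98.8 (log2 ratio -0.62). Csf1r, the receptor of the growth factor CSF1 on which most tissue macrophages depend, had 817 and 1112 at the brightest of its probe sets (0.44). Its other probe sets gave 203 and 221 (0.13), and 67.9 and 36.8 (-0.88), so its direction differed between probe sets. Mrc1, the mannose receptor of resident macrophages, had 152 and 222 (0.55), and Cx3cr1, the fractalkine receptor, had 51.5 and 52.2 (0.02), with its other probe set under the floor on both arrays. Cd14, the coreceptor for bacterial lipopolysaccharide, had 129 and 67.5 (-0.93), just inside 2-fold, and Ms4a7 had 118 and 85.5 (-0.46).

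The complement genes lay on both sides of 0. Of 4 genes, 2 were lower by 2-fold or more (50%) and 1 higher by as much (25%) at the brightest probe set. Among all genes these shares were 13% and 6.21%. The group median was a log2 ratio of -1.16. C1q is built from the chains A, B and C in equal number, and their genes C1qa, C1qc and C1qb follow each other on chromosome 4 with 0 protein-coding genes between neighbours. C1qa had a signal of 456 in the control pool and 68.5 in the knockout-labelled pool, a 6.65-fold lower value (-2.73). C1qc had 162 and 49.8, which is 3.25-fold lower (-1.70). Both have only 1 probe set.

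C1qb, the third chain, had 3 probe sets that did not agree. The brightest gave signals of 337 and 1008 (log2 ratio 1.58), the second 449 and 651 (0.54), and the third 309.9 and 48.3 (-2.68). The first and last of these ratios lie 4.26 log2 units apart, and only the last is near that of C1qa. The 2 higher probe sets are of the _x_at kind, a suffix that marks probe sets in which some probes can match other transcripts, and the lower one is not. Without _s_at and _x_at probe sets the median over the complement genes was -2.19. C3ar1, the receptor for the complement fragment C3a, had signals of 39.4 and 25.8 (-0.61), and its other probe set gave 24.9 and 23.2 (-0.11).

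Since the chains of C1q are encoded side by side, the stretches before the gene starts of C1qb and C1qc are shown here, from RefSeq promoters of build GRCm38.p6; C1qa has no entry in that table. Capitals mark GAGGAA, or TTCCTC where it lies on the opposite strand, a core of sites for PU.1, the transcription factor of myeloid cells. The C1qb stretch is chr4:136886201-136886320 on the minus strand and runs from -120 to -1 relative to the gene start. The C1qc stretch is chr4:136893045-136893164 on the minus strand and runs from -250 to -131.
C1qb: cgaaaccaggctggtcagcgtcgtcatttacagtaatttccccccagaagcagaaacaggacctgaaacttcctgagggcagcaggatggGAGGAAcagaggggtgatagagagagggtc
C1qc: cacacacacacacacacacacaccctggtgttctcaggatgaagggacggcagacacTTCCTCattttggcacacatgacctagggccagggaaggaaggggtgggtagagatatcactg

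The GAGGAA letters, searched on both strands of the 250 bases before the start, stood in 12 of the 24 members that have a promoter in the table and in 23.1% of 27025 genes. Among the surface genes 6 of 10 held them (Ptprc, Cd53, Mrc1, Itgam, Fcgr1 and Fcgr3), and none of the 3 class II genes did. Holders included both Ptprc, 3.33-fold higher, and C1qc, 3.25-fold lower. A match is a description of the letters and does not show binding.

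The class II genes were lower at most, but not all, of their probe sets. Of 6 genes, 3 were lower by 2-fold or more (50%) and none higher by as much at the brightest probe set. Among all genes these shares were 13% and 6.21%. The group median was a log2 ratio of -0.83. H2-Ab1, the beta chain of the I-A molecule, was at least 2-fold lower at all 3 of its probe sets, which spanned 1.54 log2 units. Its signals were 422 in the control pool and 184 in the knockout-labelled pool (-1.20), then 175 and 26.3 (-2.74), and 125 and 23.6 (-2.40). No other gene among the 12 at least 2-fold lower had a second probe set.

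H2-Aa, the alpha chain that pairs with it, had a signal of 1610.3 and 3047 at its brightest probe set (log2 ratio 0.92) and 389.9 and 54.7 at the other (-2.83). The probe sets thus lay 3.75 log2 units apart, the brighter of the _x_at and the other of the _s_at kind. H2-Eb1, the beta chain of the I-E molecule, had 781 and 507 (-0.62). Cd74, the invariant chain that escorts class II molecules to the endosome, had 239 and 107 (-1.16). H2-DMa, a chain of the protein that loads peptides, had 89.9 and 44.1 (-1.03), at the edge of the rule. Ciita itself was dim. It had 23.2 and 14.9, the second under the floor, and its other probe set was under the floor on both arrays, so only a bound of at least 1.17-fold lower can be given.

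Class II promoters are known for an X box and a Y box at a near-constant spacing, on which the complex that recruits the Ciita product assembles. The stretches are shown so that both boxes can be compared between class II genes that have an entry. Capitals mark TGATTGG, the core of the Y box, and AAC and ATGATG with any 2 bases between them, part of the X box, with letters chosen with these promoters in view. The stretches run from -120 to -1 and come from RefSeq, build GRCm38.p6. They are chr17:34287824-34287943 on the minus strand for H2-Aa and chr17:34305747-34305866 on the plus strand for H2-Eb1. The related genes outside the member list, for comparison, are H2-DMb1 at chr17:34153071-34153190, H2-Ob at chr17:34238785-34238904 and H2-Oa at chr17:34092259-34092378, all on the plus strand.
H2-Aa: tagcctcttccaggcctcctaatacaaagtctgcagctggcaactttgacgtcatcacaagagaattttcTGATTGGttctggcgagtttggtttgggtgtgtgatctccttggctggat
H2-Eb1: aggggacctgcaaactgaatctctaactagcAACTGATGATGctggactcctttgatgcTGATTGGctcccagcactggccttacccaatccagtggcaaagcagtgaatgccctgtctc
H2-DMb1: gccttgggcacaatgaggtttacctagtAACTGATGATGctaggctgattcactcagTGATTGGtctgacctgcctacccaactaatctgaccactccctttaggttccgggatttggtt
H2-Ob: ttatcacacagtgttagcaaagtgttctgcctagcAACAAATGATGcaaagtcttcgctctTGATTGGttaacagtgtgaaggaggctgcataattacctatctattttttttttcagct
H2-Oa: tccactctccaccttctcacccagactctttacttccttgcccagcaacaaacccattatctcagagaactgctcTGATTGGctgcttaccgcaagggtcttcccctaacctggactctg

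On both strands, TGATTGG stood in 7.65% and the X box letters in 0.122% of 27025 genes, and 7 genes held both. Of those 7, H2-Eb1, H2-DMb1, H2-DMb2 and H2-Ob are class II genes. The letters were chosen with such promoters in view, so this count cannot test whether they are particular to class II genes. In H2-Eb1 the X letters lay at -89 to -79 and the Y letters at -61 to -55. H2-Aa held the Y letters at -50 to -44 and not the X letters, and H2-DMa held neither in this window. H2-Ab1 and Ciita have no entry.

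Partners of the class II pathway were lower by 2-fold in a share near the 13% of all genes. Of 16 listed, 13 had a probe set and 11 were compared, of which 1 was lower by 2-fold or more (9.09%) and none higher by as much (median log2 ratio -0.25). Lgmn, an endosomal protease that processes antigen and the invariant chain, had signals of 541 and 229 (-1.24). H2-Oa, shown above, had 27.0 and 26.7 (-0.01), and H2-DMb2 was under the floor on both arrays.

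The intracellular and secreted proteins had the lowest median as deposited. Of 7 compared, 4 were lower by 2-fold or more (57.1%) and none higher by as much, where 13% and 6.21% of all genes were. The group median was a log2 ratio of -1.23. Aif1, the calcium-binding protein IBA1 of macrophages, had a signal of 92.3 in the control pool and 18.0 in the knockout-labelled pool, which is under the floor, so it was at least 4.68-fold lower. Cd68, a glycoprotein of the lysosome, had 105 and 27.2, a 3.87-fold lower value (-1.95). With the floor raised to the 60th percentile, the bounds for Aif1 and Cd68 were -0.48 and -0.67, so their size rests on dim signals.

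Lyz2, the lysozyme of macrophages and neutrophils, had signals of 1290.2 and 551 (log2 ratio -1.23). Cyba, the small subunit of the phagocyte NADPH oxidase that is also made in other cells, had 504 and 202 (-1.32). Cybb, its catalytic partner, was at 19.0 and 13.0, under the floor on both arrays, and gives no ratio. Pf4, a chemokine of platelets that resident macrophages also make, had 217 and 262 (0.27).

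The remaining members of the group depended on the probe set. Laptm5, a lysosomal membrane protein of blood cells, had 693 and 979.6 at its brightest probe set (log2 ratio 0.50), but 237 and 127 (-0.90) and 58.6 and 51.6 (-0.18) at the others. Coro1a, an actin-binding protein of leukocytes, had 234 and 329 at the brightest (0.49) and 241 and 60.04 at the next (-2.01), with its remaining probe set under the floor on both arrays. The ratios spanned 2.50 log2 units for Coro1a and 1.40 for Laptm5, where the difference between the 2 brightest probe sets had an SD of 0.90 over all 2662 genes.

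Probe sets of the same member often went different ways. Of the 10 genes with several probe sets, 8 had at least 2 compared. H2-Ab1 and C3ar1 were lower at all of theirs, and C1qb, H2-Aa, Coro1a, Csf1r, Fcgr2b and Laptm5 had both signs. At the 2 brightest probe sets, 4 of 8 members had opposite signs, where 44.1% of the 2662 genes did, so that share was near the background. In 5 of the 8, the 2 ratios differed by at least 2-fold, where in 30.5% of the 2662 genes they did. The brightest probe set gave the highest ratio in all 6 genes with both signs. Brightness was averaged over both arrays, so a high knockout-labelled signal itself helps a probe set to be chosen. By the control signal alone, the choice would be the C1qb probe set at 0.54 (control signal 449) and the Coro1a probe set at -2.01 (241). For the other genes of the 6 the choice would be unchanged.

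**Figure D3:**
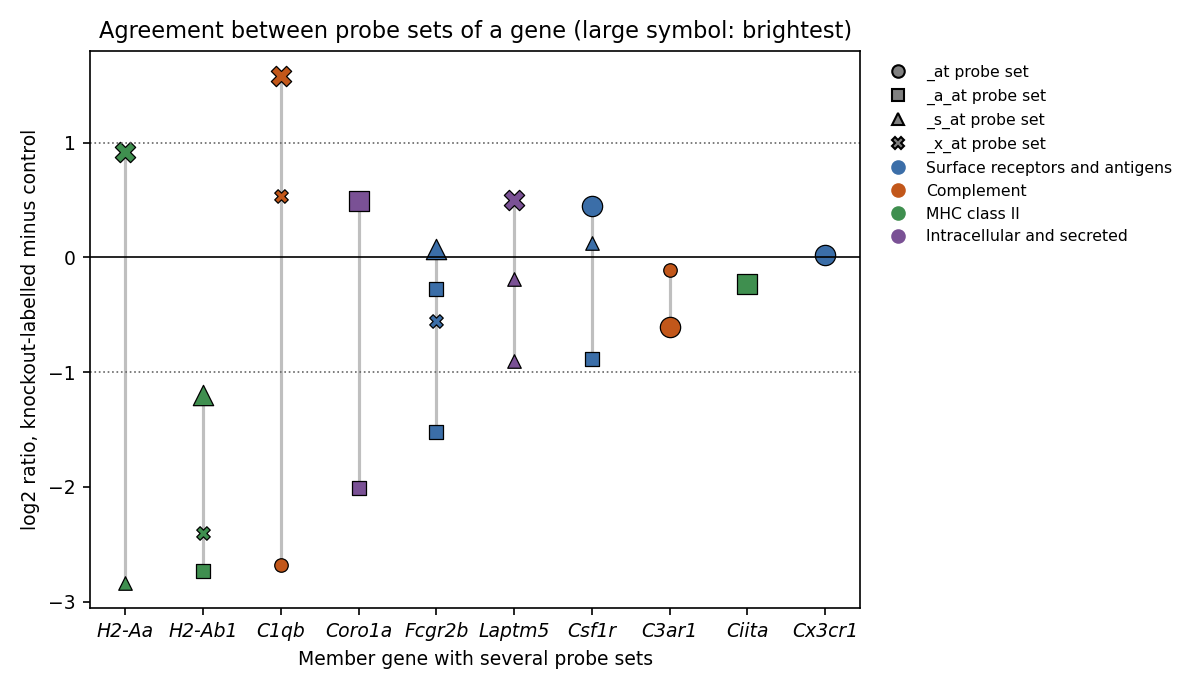
Log2 ratio of every compared probe set of the 10 member genes with several probe sets, with symbol shape for the suffix of the probe set name, colour for role, a larger symbol for the brightest probe set and dotted lines at 2-fold. C1qb spans 4.26 and H2-Aa 3.75 log2 units, and H2-Ab1 is below -1 at all 3 probe sets.

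The kind of probe set moved with the ratio. Over the whole array, 963 compared _x_at probe sets had a median log2 ratio of 0.48, and 8658 plain _at probe sets had -0.15. In 569 genes with both an _x_at and another measured probe set, the _x_at ratio was higher in 82.8%, by a median of 0.86. The members have 6 _x_at probe sets, and their median was 0.52 against -0.62 for their 23 plain _at probe sets. C1qb, H2-Aa and Laptm5, all with an _x_at probe set as the brightest, were the 3 members that took their ratio from this kind, and all 3 ratios were above 0. In 4 of 5 member genes with both kinds the _x_at ratio was higher. The part of this difference in the results was not tested.

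Counted singly, 18 of 47 compared member probe sets were lower by 2-fold or more and 2 higher by as much, where 13.9% and 6.84% of all 13291 probe sets were. Of the 12 genes at least 2-fold lower, 11 have only 1 probe set. Among all genes with 1 probe set, 18.2% were lower by 2-fold or more and 3.33% higher by as much. The 11 lower members are 11 of 23 such members compared, and no second probe set bears on any of them.

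**Figure D4:**
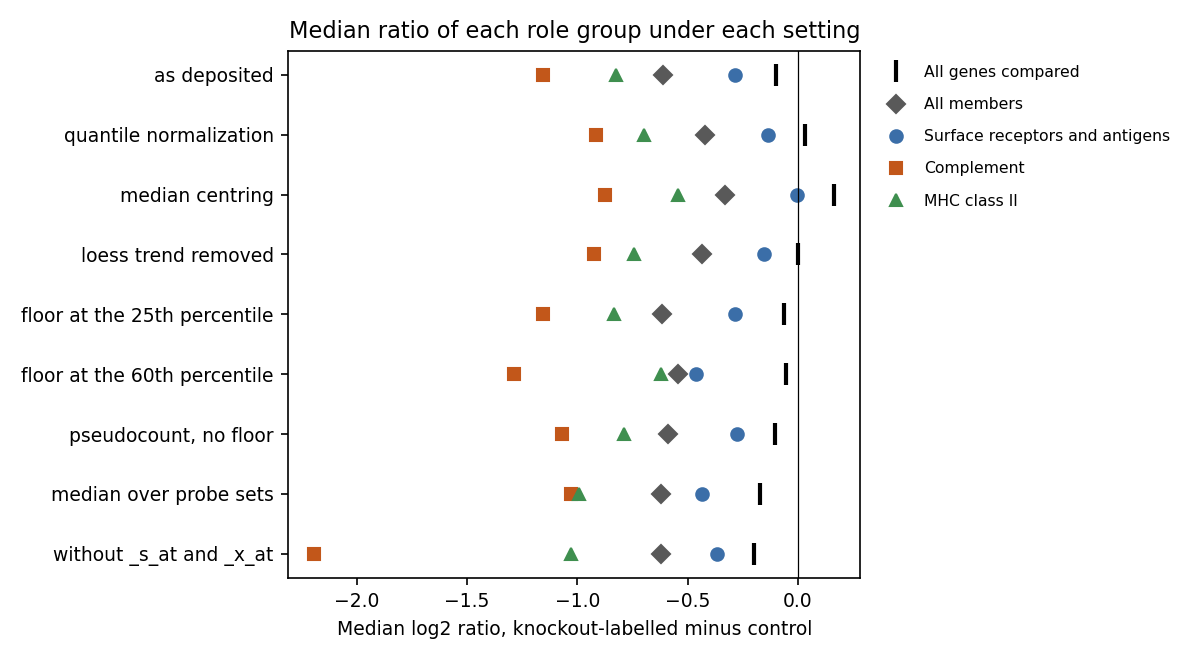
Median log2 ratio of all genes compared (black bars), of all member genes and of the surface, complement and class II members, as deposited and under 8 other settings. The median of all members lies below that of all genes in every setting, between -0.62 and -0.33 (median centring), and the surface median reaches -0.01 after median centring.

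Other phagocyte genes differed little as a list. Of 52 genes for myeloid transcription factors, receptors and signalling proteins, 40 were compared, 5 were lower by 2-fold or more and 2 higher by as much, which is 12.5% and 5.00% against the 13% and 6.21% of all genes. Their median log2 ratio was -0.14. The largest were Fcgrt, the neonatal Fc receptor found in many cell types (signals of 387 and 95.3, -2.02), Rac2, a GTPase of blood cells (91.9 and 33.1, -1.48), and Cd48, a leukocyte adhesion molecule (53.3 and 21.8, -1.29). The 2 at least 2-fold higher were the receptors Ccr2 (101 and 222, 1.13) and Tlr4 (30.0 and 62.6, 1.06), named after their values were seen. Their other compared probe sets gave 0.87 and 0.17. By any amount, 26 of the 40 were lower and 14 higher. Spi1, which encodes PU.1, was under the floor on both arrays.

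Other complement genes went both ways, with 2 lower by 2-fold or more and 2 higher by as much among 11 compared (median log2 ratio -0.61). That is 18.2% each way, where 13% of all genes were lower and 6.21% higher, and 3 of the 11 were bounds at the floor. Cfi, a protease that cuts complement fragments C3b and C4b, had signals of 46.0 and 135 (1.55). C1ra, a protease that binds C1q, had 467 and 194 (-1.27), and its partner C1s1, chosen after its value was seen, had 1416 and 676 (-1.07). Masp1, a protease of the lectin pathway, had 61.4 and 141 (1.20), with 0.36 at its other probe set.

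Marker lists of other cells stood beside these as follows. Of 13 stromal markers at their brightest probe sets, 1 was at least 2-fold lower, Hoxa11 (signals 389 and 108, log2 ratio -1.85). That is 7.69%, where 13% of all genes were, and none was at least 2-fold higher (median 0.22). Their further probe sets often disagreed, with -2.09 for Pdgfrb (0.46 at the brightest), -1.70 for Pdgfra (-0.00) and -1.26 for Col1a1 (0.59). Those of Vim gave -0.58 and 0.26 (0.66), and those of Col1a2 and Col3a1 gave 0.01 and 0.15. The summed signal of the 13 stromal markers was 33763 in the control pool and 46466 in the knockout-labelled pool. That of the 33 compared members was 11799 and 11790, and that of all 8594 genes compared was 2.85e+06 and 3.23e+06. The _x_at value of H2-Aa alone gave 1610.3 and 3047 of the member sums, and that of C1qb 337 and 1008. Of 13 lymphocyte markers, 12 had a probe set and 6 were compared, with Il2rb, an interleukin 2 receptor chain (-1.27), at least 2-fold lower and Klrd1, a receptor of natural killer cells (1.21), at least 2-fold higher. That is 16.7% each way, where 13% of all genes were lower and 6.21% higher. The summed signal of the 6 was 318 and 364, of which Klrd1 alone gave 117 and 270. By any amount, 5 of the 6 were lower and 1 higher, with a median log2 ratio of -0.50. The T cell marker Cd3g was above the floor on both arrays (signals 37.1 and 32.9, log2 ratio -0.17), and Cd3d (33.4), Ncr1 (30.4) and Cd2 (25.7) were above it in the control pool alone. Cd3e, Cd4, Cd8a, Cd79a, Cd79b and Ms4a1 were under it on both.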

How the data were processed

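RNA of stromal cells pooled from 3 mice per genotype was measured on 2 arrays. The authors deposited linear-scale intensity values, a MAS5 signal for each of 22690 probe sets, for which the submitters' processing notes name MAS5 and Affymetrix Expression Console version 1. The authors' scaling was kept (mean 150.1 on both arrays after trimming 2% from either end). Amplification with the 3' Express kit from 100 ng of total RNA, per the labels' protocols, starts at the poly-A tail. Of the 22690 probe sets, 22626 are not control probe sets. For these the annotation gives 1 symbol for 20380, several for 691 and none for 1555. Those with 1 were used, with symbols updated through Entrez identifiers in a RefSeq table of GRCm38.p6. Control probe sets with 1 symbol stayed in the comparison, such as the brightest probe set of Actb. They were left out of the floor percentile. Genes under the floor on both arrays (3800) were left out, which left 8594. Calls use a 2-fold size rule, and with 1 array per group no test was possible. Alternatives were quantile normalization, median centring, removal of a loess trend (span 0.4, statsmodels 0.14.6), floors at the 25th and 60th percentile, a pseudocount of 4.70 without a floor, the median over probe sets, no _s_at or _x_at probe sets, and size rules of 1.5-fold and 3-fold. The size rule was run on simulated data with known changes put on genes far above the floor. The noise added there was smaller than the spread between probe sets of these arrays. That run therefore cannot show how the rule performs on dim genes or at the spread seen here. All members are named, as are up to 3 genes past 2-fold (by absolute log2 ratio) from each further list, or the 2 with the highest signal where none is. C1s1, Ccr2 and Tlr4, and the genes named only as above or under the floor or beside a sequence, fall outside that rule. Members and lists were chosen with earlier results of these data known. The number of arrays limits the precision.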

Additional observations from a re-analysis of the deposited data

How the results depend on the processing

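The count of members called lower was 7 after median centring (12 as deposited) and 5 by a 3-fold rule. In the other settings it lay between 8 (of 28 compared, with the floor at the 60th percentile) and 12, or was 18 by the looser 1.5-fold rule. The count at least 2-fold higher was 1 with the median over probe sets, without _s_at and _x_at probe sets, by a 3-fold rule, and when all probe sets of a gene had to pass 2-fold, an alternative chosen after seeing the data. Counted as probe sets, 10 were lower and 1 higher by a 3-fold rule, and 1 was higher without _s_at and _x_at. That same removal gave a complement median of -2.19 and turned C1qb from 1.58 to -2.68. The other 62 summary values stayed within 1.5 times the count, or within 0.64 log2 units of the median, as deposited. No paired analysis was possible because each group has 1 array. Dim signals limit Aif1, Ciita, Cybb, Itgam and Fcgr1, which were under or next to the floor on at least 1 array.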

Other observations

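Of 8 dendritic cell markers, 7 had a probe set and 5 were compared, of which 2 were 2-fold or more below control and none was as far above it. That is 40% lower, where 13% of all genes were, but in 3 of the 5 the knockout-labelled signal was under the floor. Zbtb46, a transcription factor of conventional dendritic cells, had signals of 79.3 in the control pool and 33.9 in the knockout-labelled pool (log2 ratio -1.23). Cd209a, a lectin of monocyte-derived dendritic cells, had 49.8 and 18.7, the second under the floor. The summed signal of the 5 was 232 and 109.9. The chemokine receptors Xcr1 and Ccr7 were under the floor on both arrays.

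Of 11 granulocyte and mast cell markers, 5 were compared and 2 were at least 2-fold lower (40%, where 13% of all genes were). Cma1, a mast cell chymase, had signals of 56.7 and 11.9, the second under the floor, and Kit, the stem cell factor receptor, had 167 and 74.2 (log2 ratio -1.17). The summed signal of the 5 was 361 and 190.04. Of the neutrophil genes, S100a8 had 45.1 and 47.6 (0.08) and Mpo had 31.5 and 24.0 (-0.39), and S100a9, Elane, Ngp, Camp and Csf3r were under the floor on both arrays.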
